A study of Drosophila melanogaster with 5 samples.

Results

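The DNA replication machinery was followed through 36 genes named by FlyBase symbol, current or older, that encode licensing factors, fork proteins, the enzyme of nucleotide supply and the regulators of S-phase entry. Of these, 34 were matched to a counted gene among the 17735 genes of the count tables, and 33 had enough reads to be compared. Orc1 and RPA2 were not analysed here, because the identifiers paired with these symbols in the gene table were not among those counted. The gene lat, which encodes the Orc3 subunit of the origin recognition complex, had 0 reads in all 5 libraries. Its annotated exons are shared with CG34315 over 100% of their length, so reads from it would be set aside as ambiguous. The rule for the members uses gene names and no values of these libraries, but the members were chosen with earlier results of these data known.

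Poly(A) RNA-seq was made from whole third-instar Drosophila larvae of the y1w1118 line, the wild type, and of CG1603attP homozygotes. In CG1603attP most of the gene encoding the zinc-finger protein Mzfp1 (CG1603) is replaced by an attP site with a 3P3:dsRed reporter. The deletion was made in the y1w1118 line, so both groups share the y1 and w1118 alleles. The homozygous larvae came from a cross of parents that carried the deletion over a CyO GFP balancer, and such homozygotes die as second-instar or third-instar larvae. There were 3 CG1603attP and 2 y1w1118 libraries, which the study calls biological replicates, each from a mass of pooled whole larvae. All larvae were kept at 25°C, and sex and age within the instar are not given in the sources used here.

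Replication origins are licensed when the origin recognition complex, Cdc6 and the Cdt1 protein Double parked load the hexameric MCM helicase onto DNA. Cdc45 and the GINS complex then join the helicase, and DNA polymerases, the PCNA clamp and ribonucleotide reductase, which makes deoxynucleotides, sustain synthesis. Transcription of many of these genes is driven by the E2f1 and Dp heterodimer, and Cyclin E with Cdk2 drives S-phase entry. In Drosophila larvae, imaginal disc cells and neuroblasts divide by mitosis, while most larval tissues grow by endocycles, rounds of replication without division. In libraries of whole larvae, fewer cells of a replicating type and less RNA per cell cannot be told apart.

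Between 9044930 and 14514277 reads per library were counted on genes after ribosomal RNA genes were left out. Levels are given as CPM, counts per 1000000 reads of the TMM-scaled library size, and 1 read was worth from 0.0668 to 0.116 CPM. CG1603 itself was counted with 124 and 102 reads in y1w1118 and with 0, 0 and 3 reads in CG1603attP, as the labels require. Genotypes were compared with edgeR's quasi-likelihood test over all 11045 genes with enough reads, and a gene was called at a Benjamini-Hochberg adjusted p of at most 0.05. Log2 fold changes are given for CG1603attP against y1w1118. The p-values measure the spread between these 5 libraries, and the spread within y1w1118 rests on a single difference.

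Most genes of the replication machinery were lower in CG1603attP larvae, and the summed CPM of all matched members was 49.8% of the y1w1118 level. By role group it was lowest for the ribonucleotide reductase and polymerase genes, at 16.9% and 22.9%. It was highest for the S-phase regulators and the origin recognition complex, at 86.5% and 93.9%. Of the 33 genes tested, 18 were lower and 0 were higher by the edgeR test. By the same test 15.7% of all genes tested were called lower and 14.6% higher (30.4% either way), against 54.5% and 0% of the members tested. At an unadjusted p under 0.05 there were 20 lower and 2 higher members, against 2338 lower and 2279 higher of all 11045 genes. DESeq2 called 20 members lower (60.6%) and 0 higher, against 18.4% lower and 18.3% higher of all genes. The median log2 fold change was -1.57 over the 33 members and -0.011 over all genes. In all 18 lower members every CG1603attP library was below both y1w1118 libraries, a pattern seen in 24 of the 33 members and in 30.8% of all genes tested. The opposite pattern was seen in 2 members and in 28.9% of all genes. The mean CPM of the lower members in CG1603attP was between 9.34% and 61.2% of the y1w1118 mean. The number of lower members was 7 without y1w1118 replicate 1 and 9 without y1w1118 replicate 2, fits in which the remaining wild-type library is assumed to vary like the mutant ones. In these fits 6.80% and 7.10% of all genes were lower, against 21.2% and 27.3% of the members. When libraries were scaled by size only, 1424 genes were lower and 2080 higher, against 1735 and 1618 with TMM factors, and 16 members were lower.

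**Figure D1:**
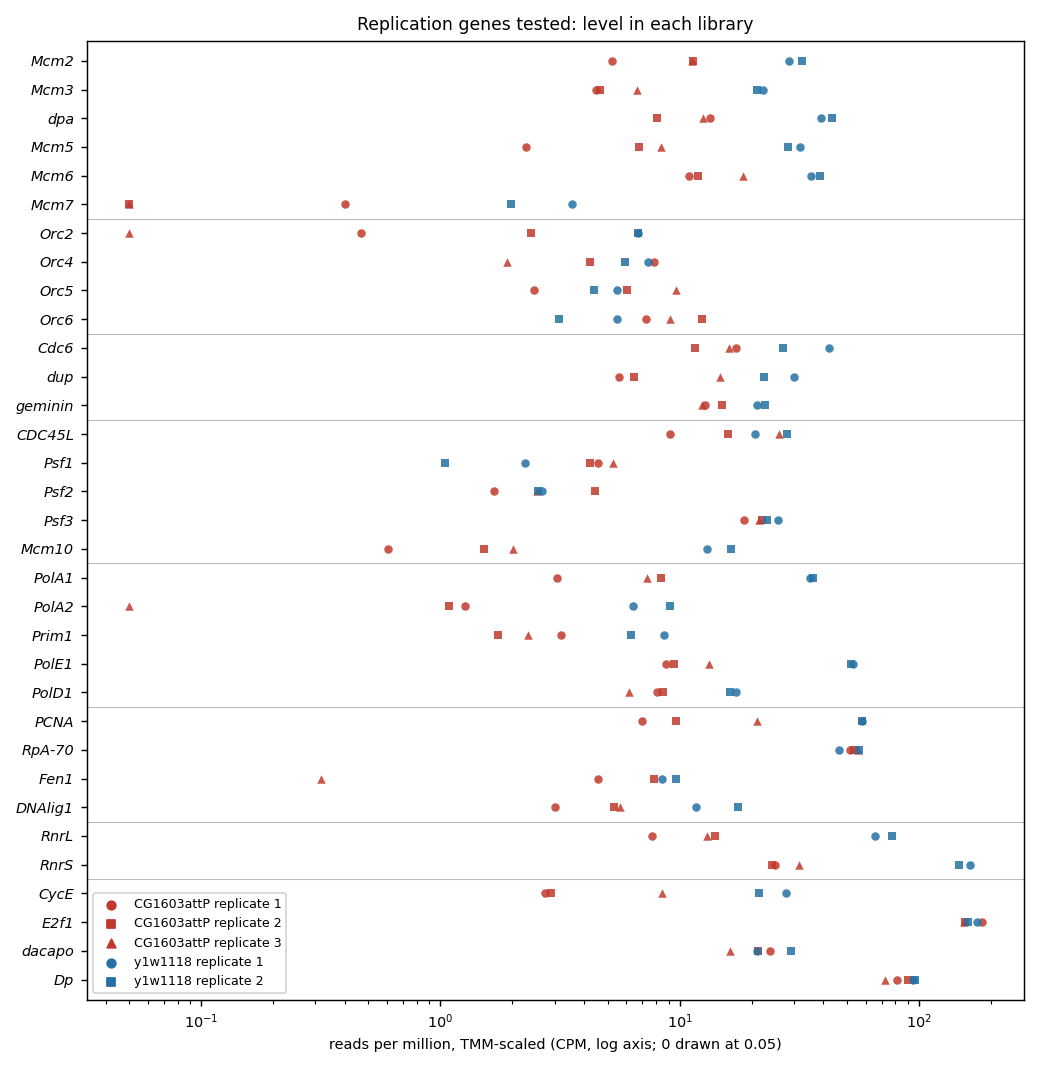
Level of each of the 33 replication genes tested in each library, as CPM on a log axis, with red symbols for the 3 CG1603attP and blue symbols for the 2 y1w1118 libraries, marker shapes for the replicate number and lines between role groups. The red symbols lie left of both blue ones in 24 genes, with E2f1, RpA-70 and Psf2 among those that overlap.

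Ribonucleotide reductase, which turns ribonucleotides into the deoxynucleotides used for DNA synthesis, was lower in both subunits (edgeR). RnrS (FBgn0011704; 2R, 11983145 to 11985393), the small subunit, was at 164 and 147.8 CPM in y1w1118 and at 25.0, 24.3 and 31.7 CPM in CG1603attP. The highest mutant library was thus far below the lowest wild-type one, and the log2 fold change was -2.53 ± 0.17 SE (edgeR adjusted p = 0.000338). RnrL (FBgn0011703; 2L, 10325026 to 10327943), the large subunit, was at 65.9 and 77.4 CPM in y1w1118 and at 7.68, 14.1 and 13.0 CPM in CG1603attP. Its expression was 6.18-fold lower in the mutant (log2 fold change -2.63 ± 0.29 SE, edgeR adjusted p = 0.0014). The summed level of both subunits in CG1603attP, 38.6 ± 6.02 CPM (SD, n = 3), was 16.9% of the 228 ± 3.61 CPM (SD, n = 2) in y1w1118, the lowest share of the 8 role groups.

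The MCM helicase, the ring of Mcm2 to Mcm7 that unwinds DNA ahead of the fork, was lower in 5 of its 6 genes (edgeR). Mcm5 (FBgn0017577; 3R, 10788524 to 10791150) was at 31.8 and 28.4 CPM in y1w1118 and at 2.27, 6.76 and 8.36 CPM in CG1603attP, a log2 fold change of -2.39 ± 0.50 SE (edgeR adjusted p = 0.0133). Mcm3 (FBgn0284442) was at 22.4 and 21.0 CPM in y1w1118 and at 4.47, 4.65 and 6.67 CPM in the mutant (log2 fold change -2.05, adjusted p = 0.00279, edgeR). The Mcm4 gene dpa (FBgn0015929) went from 39.0 and 43.4 CPM to 13.4, 8.06 and 12.5 CPM, with no overlap between the genotypes (log2 fold change -1.86, adjusted p = 0.0033, edgeR). Mcm2 (FBgn0014861) was at 28.7 and 32.5 CPM against 5.21, 11.4 and 11.2 CPM, and Mcm6 (FBgn0025815) at 35.4 and 38.9 CPM against 11.0, 11.9 and 18.4 CPM. Their log2 fold changes were -1.72 and -1.44, so Mcm6 had the smallest decrease of the called helicase genes, although the 95% intervals of all 5 overlap. Leaving out either y1w1118 library ended the calls of Mcm2, Mcm5 and Mcm6 but not those of Mcm3 and dpa.

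Mcm7 (FBgn0020633; 3L, 8891596 to 8894310) could hardly be read from the unstranded counts. An antisense RNA, asRNA:CR45871, overlaps 81.7% of its exon length, and the unstranded column held only 36 and 17 reads in y1w1118 and 6, 0 and 0 reads in CG1603attP. That difference was not called (log2 fold change -4.15 ± 1.39 SE, edgeR adjusted p = 0.0662). In the columns counted per strand, the reads assigned to Mcm7 were 134 and 98 reads in y1w1118 and 20, 58 and 13 in CG1603attP on one strand setting. The other setting gave 109 and 101 against 23, 52 and 28 reads. The library kit did not mark strand, so each setting holds reads of both Mcm7 and its antisense partner, which cannot be told apart. These mixed counts were lower on both settings, with log2 fold changes of -2.36 and -2.0 (adjusted p = 0.0131 and 0.00959, edgeR). On the unstranded reads Mcm7 was called lower by DESeq2 (-4.30, adjusted p = 0.0242) and by edgeR's current quasi-likelihood fit (-4.07, adjusted p = 0.0145).

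Mcm10, which binds the loaded helicase and helps to activate it, had the lowest share of the y1w1118 level among the called members. Mcm10 (FBgn0032929; 2L, 21179933 to 21182812) was at 13.1 and 16.5 CPM in y1w1118, from 133 and 142 reads, and at 0.601, 1.53 and 2.01 CPM in CG1603attP, from 9, 21 and 19 reads. Its expression was 10.8-fold lower in the mutant (log2 fold change -3.43 ± 0.53 SE, edgeR adjusted p = 0.00453), and the call held under all 18 alternatives. Of its exon length 13.0% overlaps the gene Ret.

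**Figure D2:**
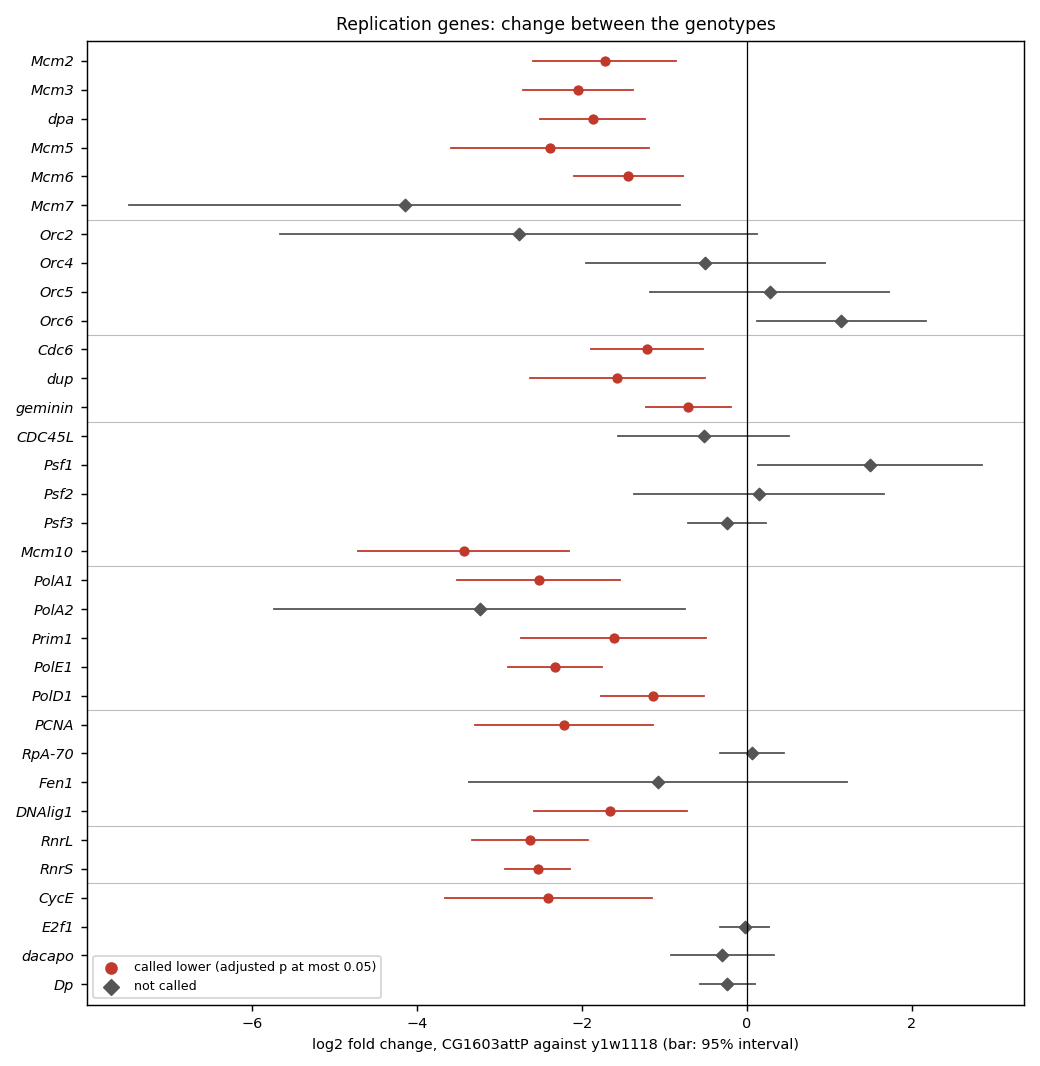
Log2 fold change of each replication gene tested, CG1603attP against y1w1118, with bars for the 95% interval from edgeR's quasi-likelihood fit, red circles for genes called lower and grey diamonds for genes not called. The 18 called genes lie between -3.43 for Mcm10 and -0.71 for geminin, and the intervals of E2f1 and RpA-70 are narrow and span 0.

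The DNA polymerases were lower in 4 of 5 genes (edgeR), and the fifth, PolA2, missed the threshold. PolE1 (FBgn0264326; 3R, 23348128 to 23355163), the catalytic subunit of the leading-strand polymerase epsilon, was at 53.1 and 52.0 CPM in y1w1118 and at 8.81, 9.52 and 13.2 CPM in CG1603attP. The libraries within each genotype were close together, and expression was 5.002-fold lower in the mutant (log2 fold change -2.32 ± 0.24 SE, edgeR adjusted p = 0.00108). PolA1 (FBgn0259113; 3R, 21666562 to 21671750), the catalytic subunit of the polymerase alpha-primase complex that starts each new strand, was at 35.2 and 36.2 CPM against 3.07, 8.35 and 7.31 CPM (log2 fold change -2.52 ± 0.41 SE, edgeR adjusted p = 0.00555). The primase gene Prim1 (FBgn0011762) was at 8.64 and 6.26 CPM in y1w1118 and at 3.21, 1.74 and 2.33 CPM in the mutant (log2 fold change -1.61, adjusted p = 0.0418, edgeR). Its call ended under 8 of the 18 alternatives, among them leaving out CG1603attP replicate 2 or 3 or either y1w1118 library and scaling by library size only. PolD1 (FBgn0263600), the catalytic subunit of the lagging-strand polymerase delta, had the smallest decrease of the group, from 17.3 and 16.2 CPM to 8.08, 8.499 and 6.14 CPM (log2 fold change -1.14, adjusted p = 0.0186, edgeR), and was not called without either y1w1118 library. PolA2, the second subunit of polymerase alpha, had 65 and 79 reads in y1w1118 and 19, 15 and 0 reads in CG1603attP (log2 fold change -3.24 ± 1.04 SE, edgeR adjusted p = 0.0573). Without CG1603attP replicate 3, the library with 0 reads, it was called lower (log2 fold change -2.68, adjusted p = 0.00992, edgeR).

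Among the proteins that act on the unwound strands, the genes differed. PCNA (FBgn0005655; 2R, 20261754 to 20262883), the sliding clamp, was at 57.9 and 57.8 CPM in y1w1118 and at 6.94, 9.66 and 21.1 CPM in CG1603attP. CG1603attP replicate 3 stood above the other mutant libraries but still well below the wild type (log2 fold change -2.21 ± 0.45 SE, edgeR adjusted p = 0.0121). Without y1w1118 replicate 1, PCNA was not called. DNAlig1, the ligase that seals Okazaki fragments, was at 11.7 and 17.5 CPM against 3.00, 5.30 and 5.61 CPM (log2 fold change -1.66, adjusted p = 0.02, edgeR), and its call ended without either y1w1118 library. By contrast RpA-70 (FBgn0010173; 3R, 8262120 to 8264451), the large subunit of the single-strand binding protein RPA, was at 46.6 and 56.1 CPM in y1w1118 and at 51.4, 53.5 and 55.9 CPM in the mutant. All 3 mutant values fell between the wild-type ones, and the 95% interval of its log2 fold change, from -0.32 to 0.45, excludes the change of PCNA. Fen1, the nuclease that trims Okazaki fragments, was at 8.44 and 9.63 CPM in y1w1118. Its mutant libraries differed widely, at 4.54, 7.84 and 0.318 CPM, and the difference was not called (log2 fold change -1.08, 95% interval -3.36 to 1.21, adjusted p = 0.448, edgeR).

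All 3 licensing factors were lower (edgeR), with log2 fold changes from -1.57 to -0.71. The gene dup (FBgn0000996), which encodes Double parked, was at 30.2 and 22.5 CPM in y1w1118 and at 5.61, 6.46 and 14.7 CPM in CG1603attP (log2 fold change -1.57 ± 0.44 SE, edgeR adjusted p = 0.0382). Leaving out CG1603attP replicate 1 or 2 or either y1w1118 library ended this call. Part of dup overlaps SRPK, and the strand settings can mix reads of overlapping genes. On both settings its count was lower (log2 fold changes -1.26 and -1.43, adjusted p = 0.00758 and 0.00744, edgeR). Cdc6 (FBgn0035918) was at 42.1 and 27.1 CPM in y1w1118 and at 17.3, 11.6 and 16.1 CPM in the mutant (log2 fold change -1.21, adjusted p = 0.0198, edgeR), and was not called without y1w1118 replicate 1. The inhibitor of licensing, geminin (FBgn0033081), which binds Double parked, was at 21.0 and 22.9 CPM against 12.8, 15.1 and 12.4 CPM. Its decrease was the smallest of the 18 (log2 fold change -0.71 ± 0.21 SE, edgeR adjusted p = 0.047), and its call ended under 12 of the 18 alternatives, among them leaving out CG1603attP replicate 1 or 3 or either y1w1118 library.

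The origin recognition complex, which marks origins for the helicase, was called in 0 of 4 genes tested by the edgeR fit used here and 0 by DESeq2, and 1 was higher and 0 lower at an unadjusted p of 0.05. Orc2 was at 6.68 and 6.73 CPM in y1w1118 and at 0.467, 2.40 and 0 CPM in CG1603attP, so that all mutant libraries were below both wild-type ones. With 7, 33 and 0 mutant reads, the 95% interval of its log2 fold change reached from -5.65 to 0.12 (adjusted p = 0.133, edgeR). It was called lower without CG1603attP replicate 2 (log2 fold change -4.60, adjusted p = 0.0379, edgeR) and by edgeR's current quasi-likelihood fit (-2.67, adjusted p = 0.0279). Orc6 lay the other way, at 5.50 and 3.13 CPM in y1w1118 and at 7.21, 12.4 and 9.11 CPM in the mutant (log2 fold change 1.15, 95% interval 0.12 to 2.17, adjusted p = 0.0888, edgeR). Orc4 was at 7.36 and 5.92 CPM against 7.81, 4.21 and 1.91 CPM, and Orc5 at 5.50 and 4.41 CPM against 2.47, 6.03 and 9.64 CPM. The genotypes overlapped in both genes, with log2 fold changes of -0.51 and 0.28 and intervals over 2 log2 units wide.

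The members that join the MCM ring in the active helicase are Cdc45 and the GINS subunits Psf1, Psf2 and Psf3. They were called in 0 of 4 genes by edgeR and by DESeq2, with Psf1 past an unadjusted p of 0.05. CDC45L, the Cdc45 gene, was at 20.7 and 28.2 CPM in y1w1118 and at 9.08, 15.9 and 26.2 CPM in CG1603attP, with overlap (log2 fold change -0.52, 95% interval -1.56 to 0.51). Psf3 was at 25.8 and 23.2 CPM against 18.6, 22.1 and 21.5 CPM (log2 fold change -0.24, 95% interval -0.72 to 0.23), an interval that excludes decreases of the size of Mcm2 to Mcm5. Of its exon length 34.9% overlaps CG17841, so the unstranded counts cover only part of the gene. In the strand columns, which can mix reads of both genes, its log2 fold changes were -0.31 and -0.26, not called. For Psf2 the values were 2.65 and 2.55 CPM against 1.67, 4.43 and 2.54 CPM (log2 fold change 0.15). Psf1 was at 2.26 and 1.04 CPM in y1w1118, from 23 and 9 reads, and at 4.54, 4.21 and 5.29 CPM in the mutant (log2 fold change 1.49, 95% interval 0.13 to 2.85, adjusted p = 0.094, edgeR). It was called higher in one of the strand columns (adjusted p = 0.0436, edgeR) and not in the other (adjusted p = 0.203, edgeR). Sld5, the GINS subunit that is not a member, was at 4.02 and 3.83 CPM in y1w1118 and at 2.14, 1.23 and 0.847 CPM in CG1603attP. All its mutant libraries were below both wild-type libraries, but it was not called (log2 fold change -1.46, 95% interval -2.99 to 0.06, adjusted p = 0.133, edgeR).

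Of the 4 regulators of S-phase entry, 1 was lower (edgeR). CycE (FBgn0010382; 2L, 15727581 to 15748150), which encodes Cyclin E, was at 27.8 and 21.5 CPM in y1w1118 and at 2.74, 2.91 and 8.47 CPM in CG1603attP (log2 fold change -2.41 ± 0.52 SE, edgeR adjusted p = 0.0153), a call lost without either y1w1118 library. E2f1 (FBgn0011766; 3R, 21620304 to 21660871), the activating E2F factor, was at 175 and 161 CPM in y1w1118 and at 184, 156 and 155 CPM in the mutant. The genotypes overlapped, and the 95% interval of the log2 fold change was -0.33 to 0.27 around -0.03, a value whose sign turned with upper-quartile factors and with scaling by library size only (0.12). Dp, its dimerization partner, was at 95.1 and 96.6 CPM against 81.4, 89.9 and 72.6 CPM (log2 fold change -0.24, 95% interval -0.57 to 0.09, adjusted p = 0.247, edgeR). The gene dacapo, whose product inhibits Cyclin E with Cdk2, was at 21.1 and 29.4 CPM against 24.0, 21.4 and 16.2 CPM (log2 fold change -0.30, 95% interval -0.92 to 0.33). The intervals of E2f1, Dp and dacapo do not overlap that of CycE.

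**Figure D3:**
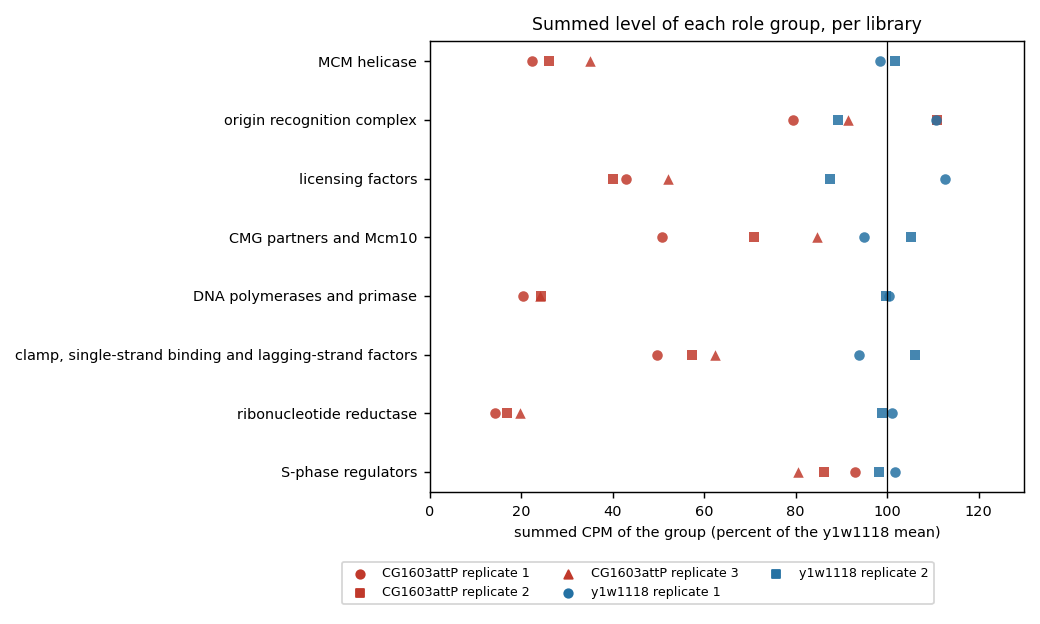
Summed CPM of each of the 8 role groups in each library, as a percentage of the mean of the 2 y1w1118 libraries (vertical line at 100). All mutant libraries lie below both wild-type libraries in each group except the origin recognition complex, with ribonucleotide reductase and the polymerases farthest to the left.

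Levels were compared between genes only per length, as CPM per kb of annotated exon. In y1w1118, the helicase genes counted without a large overlap had similar levels per length, 13.4 for dpa, 13.3 for Mcm6, 12.3 for Mcm5, 10.6 for Mcm2 and 7.90 for Mcm3. The 3 highest of these differed by no more than their spread between the y1w1118 libraries, whereas Mcm3 was the lowest in both libraries. In CG1603attP the levels per length were 4.93 for Mcm6, 3.68 for dpa, 3.20 for Mcm2, 2.36 for Mcm5 and 1.92 for Mcm3. Among the 5 polymerase genes, PolA1 and PolE1 had the highest levels per length in y1w1118, at 7.72 and 7.67 CPM per kb, and PolD1 in CG1603attP, at 2.20 CPM per kb. RnrS, at 98.0 CPM per kb, and PCNA, at 54.1 CPM per kb, stood first and second among all members in y1w1118. In the mutant E2f1, Dp and RpA-70 stood highest, with 25.6, 25.4 and 25.1 CPM per kb, above RnrS at 16.9 and PCNA at 11.7 CPM per kb.

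**Figure D4:**
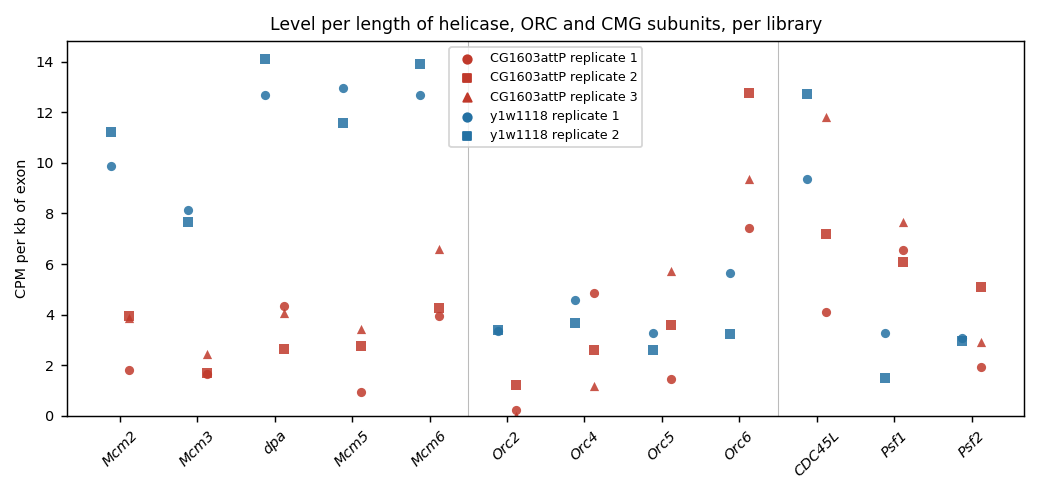
Level per length (CPM per kb of annotated exon) of MCM helicase, origin recognition complex and Cdc45 and GINS genes in each library, with blue symbols for y1w1118 and red symbols for CG1603attP. Mcm7 and Psf3, which overlap other genes, and Sld5, which is not a member, are left out. The 5 helicase genes have every red symbol below every blue one, and the red symbols of Orc6 and Psf1 lie above the blue ones.

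The members were also followed in each mutant library. The median log2 ratio of the 33 members to the y1w1118 mean was -1.62, -1.45 and -1.44 in CG1603attP replicates 1, 2 and 3, with 27, 27 and 28 members below both wild-type libraries. Over all genes tested, 43.8%, 44.6% and 47.2% were below both wild-type libraries in these replicates, against 81.8%, 81.8% and 84.8% of the members. CG1603attP replicate 1 held the lowest mutant value in 18 members, replicate 2 in 6 and replicate 3 in 9. The highest mutant value was in replicate 1 for 8 members, in replicate 2 for 11 and in replicate 3 for 14. The same order was not counted over all genes. The zeros of Orc2 and PolA2 and the 3 reads of Fen1 were all in replicate 3. The median range over the 3 mutant libraries was 0.87 log2 units for the members and 0.60 for all genes tested. The median difference between the 2 y1w1118 libraries was 0.19 and 0.22. A range over 3 libraries exceeds a difference between 2 on average even at equal spread, so the genotypes cannot be compared directly by these values. When CG1603attP replicate 1 and y1w1118 replicate 2, set apart by moult-linked genes in earlier results of these data, were both left out, 12 members (36.4%) were lower and 0 higher, with a median log2 fold change of -1.36, against 8.69% lower and 5.32% higher of all genes tested in that fit.

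A further 45 genes of replication were listed that are not members, of which 43 were matched and 42 tested. This list too was written with earlier results of these data known. Of the 42 tested, 14 were lower and 0 higher by edgeR. DESeq2 called 16 lower (38.1%, against 18.4% of all genes) and 0 higher. An unadjusted p below 0.05 was reached by 19, all lower, against 2338 lower and 2279 higher of all 11045 genes. The 14 are 33.3% of those tested, against 15.7% of all genes. Over these 42 genes the median log2 change was -0.66. Without y1w1118 replicate 1 or replicate 2 there were 6 lower genes in each case, and 7 without CG1603attP replicate 1 and y1w1118 replicate 2, or 14.3%, 14.3% and 16.7% of the list against 6.80%, 7.10% and 8.69% of all genes. The lowest called values were those of PolE2, the second subunit of polymerase epsilon, Claspin, a checkpoint mediator at the fork, RecQ4, a helicase of initiation, and Rif1, a regulator of replication timing. PolE2 was at 5.40 and 7.08 CPM in y1w1118 and at 0.267, 0.508 and 0 CPM in CG1603attP, from 4, 7 and 0 reads. Its log2 fold change was -4.46 (adjusted p = 0.0155, edgeR), with a wide 95% interval of -6.80 to -2.12. Claspin was at 29.4 and 31.9 CPM against 2.40, 7.63 and 6.25 CPM, RecQ4 at 27.7 and 24.7 against 5.88, 4.36 and 5.19, and Rif1 at 43.9 and 43.4 against 7.35, 9.88 and 10.9. Their log2 fold changes were -2.50, -2.35 and -2.22. The smallest called changes were those of Cul4 (-0.54), asf1 (-0.73), elg1 (-0.89) and Caf1-55 (-0.89), which encode a ubiquitin ligase scaffold, a histone chaperone, a clamp unloader and a chromatin assembly subunit. Of the 7 genes tested in the clamp loader group 2 were lower (28.6%, against 15.7% of all genes), elg1 and cutlet (-2.11). The median log2 fold change of that group was -0.89. RfC4 (-0.33) and Gnf1 (0.05) of the same group and the retinoblastoma gene Rbf (-0.19) were not called. In nucleotide supply, dnk, the deoxynucleoside kinase, was lower (log2 fold change -2.19, adjusted p = 0.00134, edgeR), and Ts, thymidylate synthase, missed the threshold (-1.99, adjusted p = 0.0578, edgeR).

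**Figure D5:**
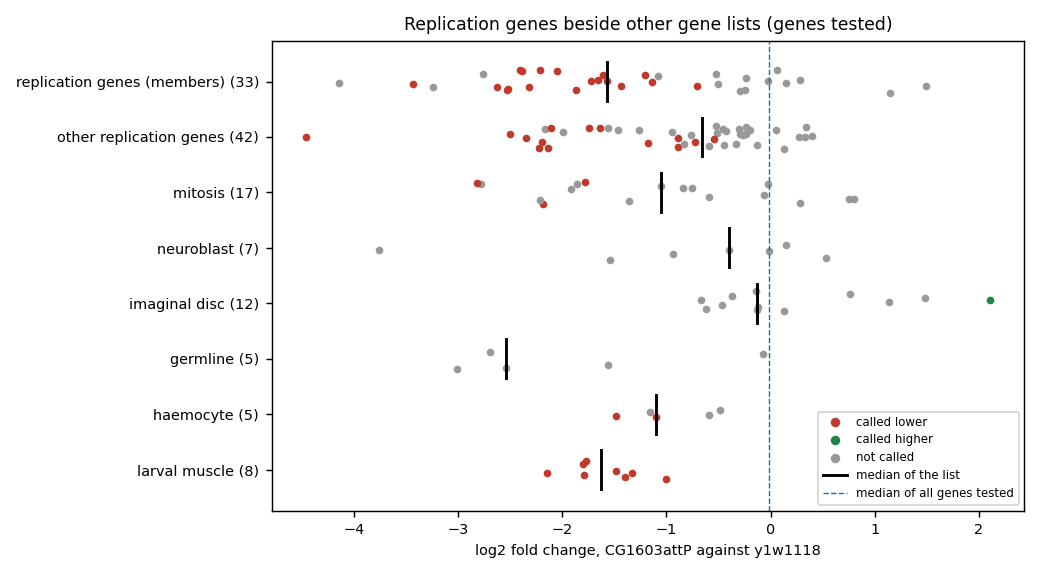
Log2 fold changes of the genes tested in each list, CG1603attP against y1w1118, with red points for genes called lower, green for called higher, grey for not called, black bars for the median of each list and a dashed line for the median of all genes tested. The median is -1.57 for the replication genes, -1.06 for the mitosis genes and -0.13 for the imaginal disc genes.

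Markers of dividing and of other larval cells moved as follows, and their part in the lower replication genes was not tested. Of 17 mitosis genes tested, 3 were lower and 0 higher (edgeR), namely stg, CycB and CycA, and the median log2 fold change was -1.06. The share of lower genes, 17.6%, was near the 15.7% of all genes, and DESeq2 called 4 and edgeR's current quasi-likelihood fit 6 of them lower. The phosphatase gene stg, which triggers mitosis, was at 7.36 and 11.7 CPM in y1w1118 and at 0.935, 0.726 and 2.44 CPM in CG1603attP (log2 fold change -2.82, adjusted p = 0.0169, edgeR), and polo was at 14.1 and 13.1 CPM against 2.87, 2.91 and 0 CPM (-2.78, adjusted p = 0.0931, edgeR). The summed mitosis list was at 182 and 178 CPM in y1w1118 and from 86.8 to 118 CPM in the mutant. Over the 17 mitosis genes 14 log2 fold changes were negative and 3 positive, among the latter aurA (0.81) and Incenp (0.75), neither called. Of 7 neuroblast genes 0 were called by edgeR (2 passed an unadjusted p of 0.05, both lower), 1 by DESeq2 and 2 by edgeR's current quasi-likelihood fit, all lower, and the summed level was 221 and 210 CPM against 219 to 235 CPM, most of it from grh, which epidermis also expresses. The neuroblast factors dpn and wor had log2 fold changes of -3.76 and -1.54 (adjusted p = 0.067 and 0.0877, edgeR), dpn with an antisense overlap over 59.3% of its exon length. In this list 5 log2 fold changes were negative and 2 positive, those of insc (0.54) and grh (0.15), and the median was -0.39. Of 12 imaginal disc genes, nub was higher (log2 fold change 2.11, adjusted p = 0.000899, edgeR) and 0 were lower, and the summed level of 450 and 405 CPM in y1w1118 overlapped that of 417 to 477 CPM in the mutant. The gene vg, a wing disc factor, had a log2 fold change of 1.49 (adjusted p = 0.142, edgeR). Over the 12 disc genes 7 log2 fold changes were negative and 5 positive, with a median of -0.13.

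Germline genes were called in 0 of 5 by edgeR and by DESeq2 and in 1, lower, by edgeR's current quasi-likelihood fit (0 passed an unadjusted p of 0.05 in the fit used here), with a median log2 change of -2.54 and a summed level of 12.4 and 16.2 CPM in y1w1118 against 2.003 to 4.65 CPM. In this list vas and aub, germline RNA helicase and piRNA genes, had -3.01 and -2.70. All 8 larval muscle genes were lower, with a median of -1.63, wupA at -2.15 and Mlc1 at -1.80, and their sum went from 59722 and 54062 CPM to between 14988 and 20276 CPM. Haemocyte genes were lower in 2 of 5 by edgeR and 3 by DESeq2. By edgeR these were Pxn (-1.48) and Hml (-1.10), He was not called (-1.16), and the list had a sum of 852 and 836 CPM against 380 to 427 CPM. The salivary gland glue genes, which are switched on late in the instar, summed to between 0.424 and 2.94 CPM over all libraries, with Sgs4 (-2.21) the only one tested. The fat body list summed to between 5.52 and 14.6 CPM, with Fbp1 at 1.45 and Lsp1gamma at -0.88, and the testis list to between 3.92 and 6.84 CPM, most of it from sa (-0.84). In these last 3 lists only 1 of 7 salivary gland, 3 of 6 fat body and 1 of 6 testis genes had enough reads to be tested. Of the genes tested 0 were called by edgeR or DESeq2, and 0 passed an unadjusted p of 0.05.

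The members lie on all major chromosome arms, with 12 of the 34 on 2R, the arm of CG1603. Of the 11 tested on 2R 6 were lower, and of the 22 elsewhere 12 were lower. In the study's list of genes with an Mzfp1 peak at their promoter in embryos, 1 of the 34 matched members appears, E2f1, in the set without the motif (2.94%), against 5.87% of all genes tested. Of the 43 other replication genes 8 appear (18.6%), of which 3 were lower here, Top2 (log2 fold change -1.18), Caf1-180 (-1.64) and Cul4 (-0.54). In that whole list 14 of the 42 genes tested were lower (33.3%), against 15.7% of all genes. The others, Cdc7 (0.34), Top1 (-0.26), chif (-0.24), RfC3 (-0.94) and Cdk2 (-0.83), were not called. The study reports that Mzfp1 was identified better in adult flies than in embryos, and the adult peaks were not used here.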

How the data were processed

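Poly(A) RNA-seq counts of 5 libraries of larvae were used. The deposited counts are raw. The authors trimmed reads with cutadapt and used STAR, with its GeneCounts option, for alignment to dm6 and for counting. The versions are not given in the sources used here. Column 2, the unstranded count, was analysed. The 4 summary lines (38.1% to 51.0% of a library) and 138 ribosomal RNA genes were left out. STAR sets aside reads with several alignments or over more than one gene.

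The members and lists were chosen with earlier results of these data known. Symbols were matched through the gene table, and positions and exon lengths came from the Ensembl annotation of dm6. The fit was made with edgeR 4.0.16 under R 4.3.3, using filterByExpr (minimum count 10, minimum total 15), TMM, estimateDisp, legacy glmQLFit and glmQLFTest, with Benjamini-Hochberg adjustment over 11045 genes and a threshold of 0.05. Standard errors (SE) were derived from the F statistic of each gene. The fit was tested on simulated data. The genes named were all members, the 4 lowest and the 4 smallest called changes of the other replication genes (no gene there was called higher), and the 2 genes farthest from 0 in each marker list. CycB, CycA, Incenp, aurA, insc, grh, Hml, RfC4, Gnf1, cutlet, Sld5, Rbf, dnk, Ts, Top1, Top2, Caf1-180, Cdc7, chif, RfC3 and Cdk2 were named after their values were seen. The alternatives included DESeq2 1.42.0, edgeR's current (not legacy) quasi-likelihood fit, other scalings and filters, the strand columns, each replicate left out and the replicate number as a block. A count of 0 allows up to 3 reads, or 0.348 CPM in the shallowest library, and covers counting error only. A planned search of promoters for motifs was not run, and no sequence was used here.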

Additional observations from a re-analysis of the deposited data

How the results depend on the processing

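Under the 18 alternatives the number of members called lower was between 7 and 20, and 7 of the 18 lower members were called under all of them (Mcm3, dpa, Mcm10, PolA1, PolE1, RnrL and RnrS). With each replicate left out in turn, the numbers of lower members ranged from 7 to 17, their median log2 fold change from -1.67 to -1.32, lower genes over all genes from 796 to 1802 and higher genes from 596 to 1738, and lower genes of the other replication genes from 6 to 17. The low ends of the counts came without a y1w1118 replicate, which leaves 1 wild-type library. Leaving out CG1603attP replicate 1 and y1w1118 replicate 2 together gave 992 lower and 607 higher genes, 12 lower members, a median of -1.36 and 7 lower genes among the other replication genes. A strand column called 1 member higher, Psf1. Scaling by library size only moved the median of all genes to 0.13 and that of the members to -1.43, a difference between them of the same direction.

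The replicate numbers are shared by the genotypes, but nothing in the labels ties same-numbered samples, and their deviations from the group means were correlated at -0.51 for number 1 and -0.27 for number 2 across genes. The replicate block gave 18 lower members, with a median of -1.70, and 1574 lower and 1393 higher genes. The members differed: CDC45L (-1.01, adjusted p = 0.0417, edgeR) and PolA2 (-2.69, adjusted p = 0.032, edgeR) were called lower with the block, and geminin and Prim1 (adjusted p = 0.089 and 0.062, edgeR) were not.

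In log2 fold change, signs turned only for genes that were not called. With 1 replicate left out in turn, Orc5 ranged from -0.19 to 0.66, Psf2 from -0.29 to 0.43, RpA-70 from -0.076 to 0.19, E2f1 from -0.11 to 0.044, Gnf1 from -0.064 to 0.17, CG8142 from -0.78 to 0.20 and Cdt2 from -0.54 to 0.11. In strand column 3, Orc5 was at -0.055, E2f1 at 0.037 and Gnf1 at -0.15, and in strand column 4, E2f1 was at 0.020, CG8142 at 0.056 and Cdt2 at 0.027. E2f1 was at 0.0015 with upper-quartile factors and 0.12 with library size only, where CG8142 was at 0.0032. CDC45L was at 0.0033 with both named libraries left out. With the replicate block Orc5 was at -0.34 and E2f1 at 0.012. The cause of these turns was not tested.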
